A study of Arabidopsis thaliana with 12 samples.

Results

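The 10 sugar transporter genes described here are SWEET2, SWEET4, SWEET11, SWEET12, SWEET13, SWEET15, SUC2, STP1, STP4 and STP13 of Arabidopsis thaliana. They were taken by gene identifier from 33602 genes tested, and they are 10 of the 40 genes of the SWEET, STP and SUC families. The genes were chosen by name with their log2 fold changes and adjusted p-values in these tables known, so their values are given as a description and the deposited p-values are not independent evidence for them. RNA came from roots of Col-0 seedlings collected 6 days after germination on 1/2 MS plates, depleted of ribosomal RNA. WT and trm4b-1 plants, the latter carrying an allele named for the RNA cytosine methyltransferase gene TRM4B, were grown on plates with 0.01 uM paraquat, which drives superoxide formation and serves as a herbicide, or on plates lacking it (control). Each of the 4 groups held 3 samples, which the design text calls biological replicates. The labels do not say how the trm4b-1 allele was made or how many plants went into a sample.

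Sugars made in leaves reach the root as sucrose in the phloem. SWEET proteins are uniporters that let sugars leave or enter cells down their gradient, and SWEET11 and SWEET12 are known from leaves, where they release sucrose from phloem parenchyma cells before it is loaded. SUC proteins are proton symporters for sucrose, of which SUC2 loads sucrose into the companion cells of the phloem. STP proteins are proton symporters that bring glucose and other hexoses into the cell.

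The tables hold 5 comparisons and no value per sample, so the level in each library, the overlap of the groups and the depth could not be given. Each table lists genes with an adjusted p under 0.1, and 8 of the 10 genes are in at least 1 table. SWEET2, a vacuolar sugar carrier of the root, and SWEET4, a plasma membrane hexose carrier, are listed in none. A gene is said to rise or fall below where its adjusted p was under 0.05 (limma is the tool named in the submitters' processing notes). All fold changes are log2 values, and the number after ± is their standard error, computed from the fold change and its p-value. The targeted gene TRM4B (AT2G22400) was not reduced: the libraries labelled trm4b-1 exceeded those labelled WT by 2.89 ± 0.08 on control plates and by 3.90 ± 0.08 on paraquat in the authors' deposited table. Below, trm4b-1 stands for the libraries so labelled, whose TRM4B RNA was raised, and every direction between genotypes is read from them. Root identity could not be checked against marker levels, because the tables hold changes and not levels.

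**Figure D1:**
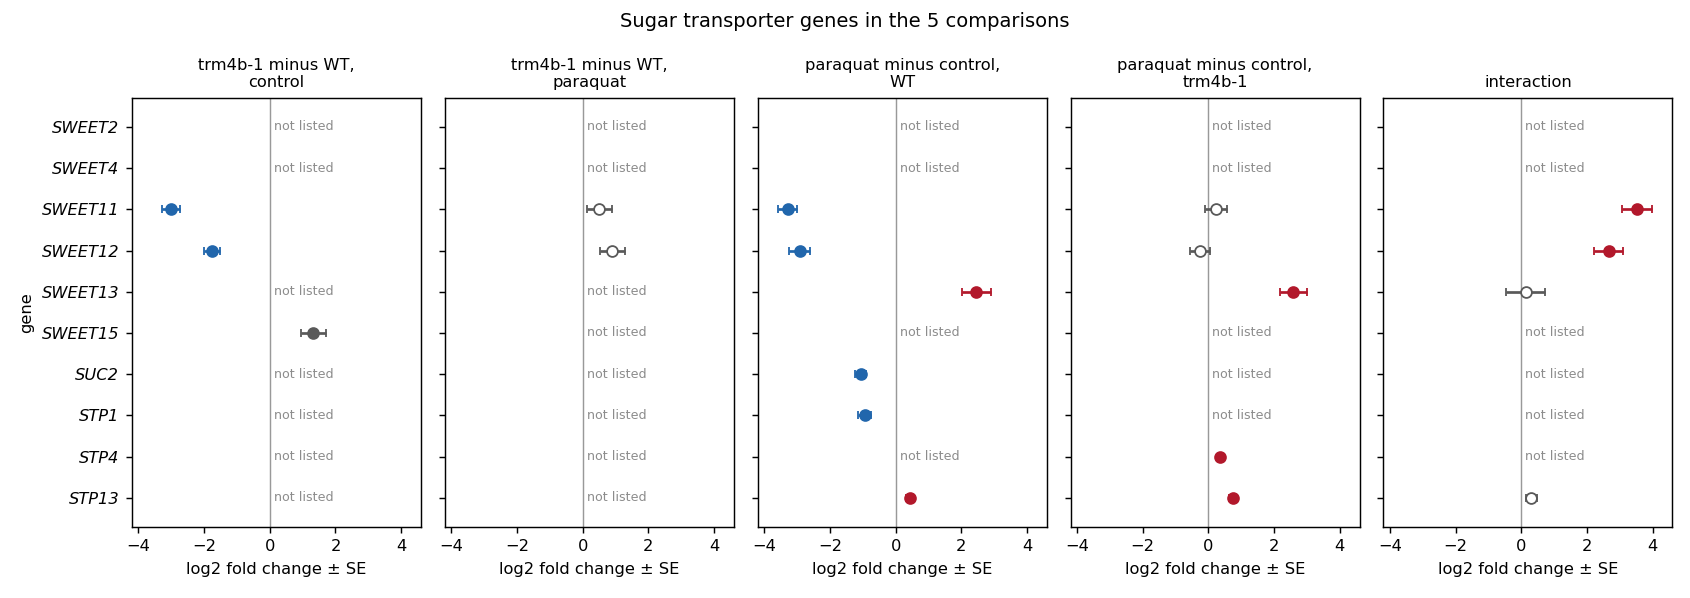
Log2 fold change of each of the 10 genes (rows) in each of the 5 comparisons (panels), with bars of 1 standard error. Filled coloured points passed an adjusted p under 0.05 (red higher, blue lower), the filled grey point was listed without passing it, and open points were rebuilt from listed comparisons. SWEET11 and SWEET12 lie at or below -1.76 in WT with paraquat and in trm4b-1 without it, and their rebuilt values lie between -0.26 and 0.91.

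SWEET11 (AT3G48740) and SWEET12 (AT5G23660) had the largest differences of the 10. SWEET11 lies on chromosome 3 of TAIR10 from 18052466 to 18054755 and SWEET12 on chromosome 5 from 7971651 to 7973925, both on the minus strand with 6 exons. Their coding sequences are 82.6% identical over 852 aligned bases, the closest pair among the 10 genes, which raises the question whether reads of one could be counted for the other. No run of 50 bases is shared between their coding sequences, and the same holds for each of the 10 genes against every other gene of its family. The length of 50 was set here and not taken from the reads, and only coding sequences were compared. Whether reads were counted for the wrong copy was not tested. The first 120 bases of exon 3 are shown to let the copies be compared, with bases that differ from SWEET11 in capitals; 13 of 120 differ in SWEET12 and 43 in SWEET15, a more distant relative. They were read on the minus strand at chr3:18054218-18054337, chr5:7973286-7973405 and chr5:4182295-4182414 of TAIR10.
SWEET11: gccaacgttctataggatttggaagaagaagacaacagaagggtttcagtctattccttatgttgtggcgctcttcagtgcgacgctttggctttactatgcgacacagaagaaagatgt
SWEET12: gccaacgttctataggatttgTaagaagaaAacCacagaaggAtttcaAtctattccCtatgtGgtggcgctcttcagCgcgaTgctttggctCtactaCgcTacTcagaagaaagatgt
SWEET15: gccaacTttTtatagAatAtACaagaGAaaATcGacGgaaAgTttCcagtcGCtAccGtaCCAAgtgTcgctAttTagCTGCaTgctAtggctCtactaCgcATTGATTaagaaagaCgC

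Without paraquat, SWEET11 was lower in trm4b-1 than in WT by a log2 value of 3.01 in size (-3.01 ± 0.27, adjusted p = 2.05e-05 in the authors' deposited table), which is 8.06-fold. SWEET12 was lower by 3.38-fold (-1.76 ± 0.24, adjusted p = 0.00189 in the authors' deposited table). These were 2 of the 10 genes, both lower, where 2.03% of all genes tested changed and 1.19% were lower. Among the 699 genes listed as lower in that comparison, SWEET11 ranked 11 and SWEET12 ranked 48 by size. SWEET15 (AT5G13170), a sucrose carrier known from senescing leaves and seeds, was the only other member listed, just inside the listing limit, at 1.32 ± 0.38 (adjusted p = 0.0974 in the authors' deposited table), where 3.65% of genes were listed.

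With paraquat, both genes fell in WT roots. SWEET11 changed by -3.29 ± 0.30 (adjusted p = 2.88e-06 in the authors' deposited table), or 9.77-fold. SWEET12 changed by -2.92 ± 0.32 (adjusted p = 1.78e-05 in the authors' deposited table), or 7.57-fold. Among the 3794 genes listed as lower there, they ranked 31 and 57 by size.

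In trm4b-1 roots neither gene was listed as changed by paraquat. The values rebuilt from the authors' deposited tables were 0.23 ± 0.34 for SWEET11 (95% interval -0.49 to 0.96) and -0.26 ± 0.30 for SWEET12 (-0.90 to 0.39). Intervals of this width leave out a change as large as that of WT. They do not leave out a change in either direction within their bounds.

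The interaction, which is the paraquat response of trm4b-1 minus that of WT, tests this difference. It was 3.52 ± 0.45 for SWEET11 (adjusted p = 0.00181) and 2.66 ± 0.44 for SWEET12 (adjusted p = 0.0160) in the authors' deposited table. They were 2 of the 10 genes, where 0.318% of all genes tested had such a difference and 0.152% had it in this direction. SWEET11 ranked 9 and SWEET12 ranked 19 by size among the 185 listed genes with a positive interaction. With Holm adjustment over all genes, which called 0.0684% of them, SWEET11 passed in the interaction and SWEET12 did not, and an adjusted p under 0.01 (0.101% of all genes) gave the same split. In the genotype comparison without paraquat Holm adjustment, which called 0.122%, likewise kept SWEET11 alone.

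On paraquat, neither gene was listed as different between the genotypes. The rebuilt values of trm4b-1 minus WT were 0.51 ± 0.37 for SWEET11 (95% interval -0.27 to 1.29) and 0.91 ± 0.37 for SWEET12 (0.12 to 1.70), from the authors' deposited tables. The interval of SWEET12 lies above 0 before any adjustment, but the gene did not reach the listing limit. None of the 10 genes was listed in that comparison, where 0.223% of genes tested were listed and 0.143% changed. A count of 0 of 10 is near the background.

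Set against WT control, the level of SWEET11 was 12.4% in trm4b-1 control, 10.2% in WT paraquat and 14.6% in trm4b-1 paraquat, computed from the authors' deposited tables. That of SWEET12 was 29.6%, 13.2% and 24.8% in the same order. The WT control group thus stood alone at the high end for both genes. Its 3 samples enter both differences with WT control and the interaction, so these comparisons share samples and do not support each other. Whether all 3 WT control libraries were high could not be seen in tables without values per sample. The standard errors of 0.27 and 0.24 in the genotype comparison stand beside a median of 0.156 over all genes that changed in it. The tables do not allow a test of SWEET11 against SWEET12.

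**Figure D2:**
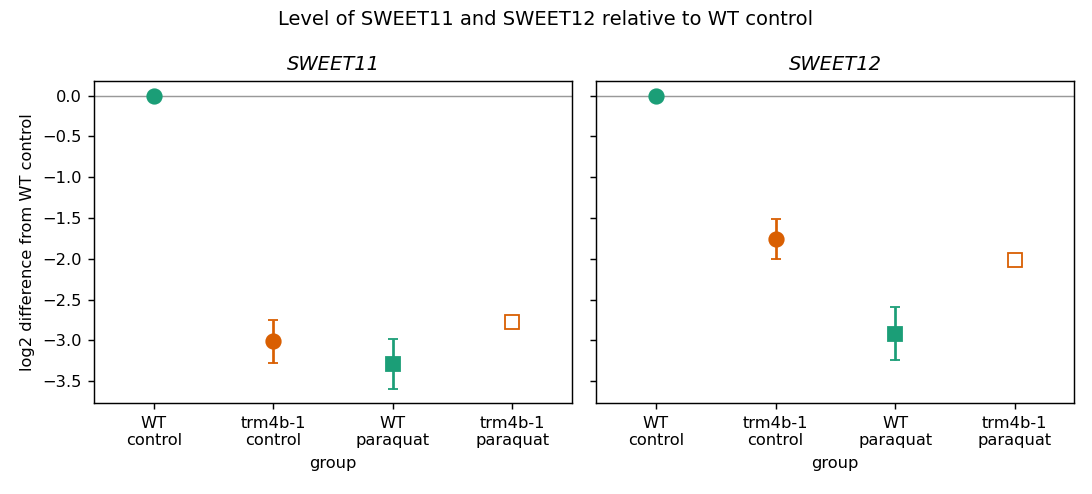
Log2 difference of SWEET11 (left) and SWEET12 (right) from the WT control group, for each of the 4 groups, with bars of 1 standard error of the difference. Green marks WT, orange trm4b-1, circles control and squares paraquat; the open square has no bar because its standard error cannot be recovered. The other groups lie between -3.29 and -2.78 for SWEET11 and between -2.92 and -1.76 for SWEET12.

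Genes of photosynthesis, used as markers of shoot tissue, are given here because both SWEET genes are known from leaves. Of 16 such genes, 11 fell with paraquat in WT and none rose, where 9.01% of all genes tested fell and 7.99% rose. RBCS1A, a small subunit of Rubisco, changed by -1.85 ± 0.37 and LHCB1.3, a light-harvesting protein, by -2.79 ± 0.42 in the authors' deposited table. LHCB1.1, LHCB1.2 and RBCS3B had values larger in size, at -3.52, -3.43 and -3.39 (adjusted p = 0.0339, 0.0156 and 0.0455 in the authors' deposited table). Their adjusted p-values exceeded that of LHCB1.3 (adjusted p = 0.000225 in the authors' deposited table), so their sizes are less certain. The values of these photosynthesis genes stand beside -3.29 for SWEET11 and -2.92 for SWEET12. In trm4b-1 without paraquat 1 of the 16 was lower than in WT, where 1.19% of all genes tested were lower. It was RBCS1A at -1.87 ± 0.36 with an adjusted p of 0.0156 in the authors' deposited table. LHCB1.3 (-1.14, adjusted p = 0.0683) and PSBO1 (-0.76, adjusted p = 0.0661) were listed there as lower without passing the threshold. Of all genes tested, 2.08% were listed as lower.

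With paraquat in trm4b-1, 1 of the 16 photosynthesis genes rose, LHCB2.1 by 1.87 ± 0.53 in the authors' deposited table, and none fell. Both counts are near the shares of all genes tested, of which 4.72% rose and 4.33% fell. In the interaction 0 of 16 passed the threshold, where 0.318% of all genes tested did. There 1 was listed, the Rubisco activase gene RCA, at 1.51 ± 0.34 (adjusted p = 0.0750 in the authors' deposited table), where 0.943% of all genes were. On paraquat none of the 16 was listed between the genotypes, where 0.223% of all genes were. A count of 0 of 16 is near the background in both cases. RBCS and LHCB1 genes have near-identical copies, so the values of single copies are uncertain. The part of shoot tissue or of photosynthesis gene activity in the values of SWEET11 and SWEET12 was not tested, and fewer cells of a type cannot be told apart from less RNA per cell in whole roots.

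**Figure D3:**
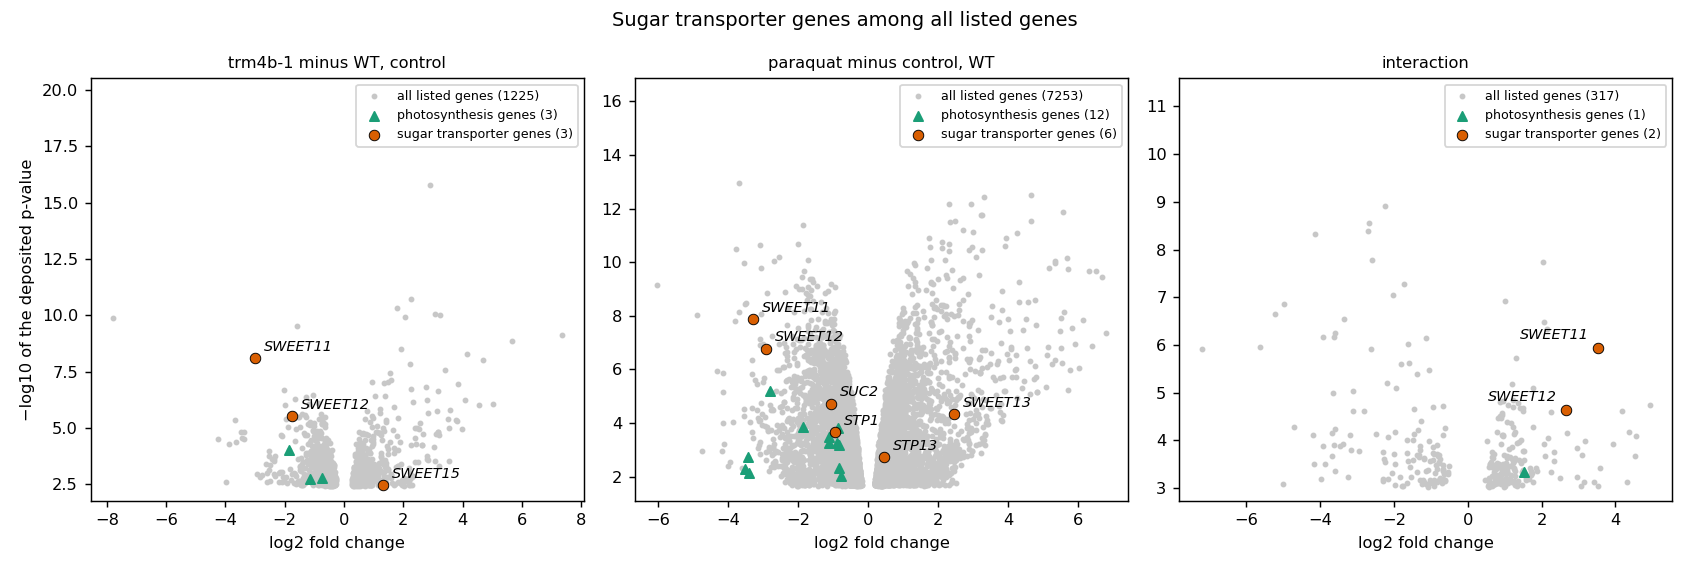
Log2 fold change (horizontal axis) against −log10 of the deposited p-value (vertical axis) for all listed genes in 3 comparisons, with sugar transporter genes as orange circles and photosynthesis genes as green triangles. SWEET11 and SWEET12 stand at the lower end in the first and second panels and at the upper end in the interaction, where 1 photosynthesis gene is listed at 1.51.

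The genes nearest to SWEET11 and SWEET12 in pattern were sought among the 129 genes listed in the same 3 tables and no other. Nearness was the Euclidean distance over the 3 log2 fold changes. Of the 129, 86 had the same signs as both SWEET genes, and 35 passed the threshold in all 3 tables. All 3 comparisons hold the WT control group. The interaction is also the genotype difference on paraquat minus that without it, so the 3 signs are largely tied for genes listed nowhere else. The 86 are therefore no measure of likeness to the SWEET genes. Nearest to SWEET11 were AT5G26070 (distance 0.954), PRK (1.07) and AT1G24485 (1.12). PRK, the phosphoribulokinase gene of the Calvin cycle, had -2.36 in trm4b-1 against WT, -3.31 with paraquat in WT and 4.37 in the interaction in the authors' deposited table. Nearest to SWEET12 were AT5G62330 (0.503), XTH26, a wall enzyme gene (1.01), and AT1G50350 (1.09).

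The promoters of SWEET11 and SWEET12 are shown because both genes changed in the same 3 comparisons. Each run is the 250 bases before the annotated gene start in RefSeq on TAIR10.1, minus strand, at chr3:18054833-18055082 and chr5:7973996-7974245, with the W-box core TTGAC or its complement, the binding core of WRKY factors, in capitals.
SWEET11: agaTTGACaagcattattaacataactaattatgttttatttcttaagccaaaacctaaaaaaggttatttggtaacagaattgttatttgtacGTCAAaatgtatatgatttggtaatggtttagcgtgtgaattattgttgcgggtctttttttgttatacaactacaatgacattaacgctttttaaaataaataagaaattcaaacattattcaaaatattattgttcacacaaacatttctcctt
SWEET12: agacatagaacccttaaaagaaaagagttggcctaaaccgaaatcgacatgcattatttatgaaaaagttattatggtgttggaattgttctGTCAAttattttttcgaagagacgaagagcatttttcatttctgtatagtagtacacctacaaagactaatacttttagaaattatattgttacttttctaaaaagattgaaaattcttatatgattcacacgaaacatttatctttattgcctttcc
The W-box core occurs in SWEET11 at 2 places and in SWEET12 at 1, counted on both strands. It is found in 5 of the 10 promoters and in 44.9% of 27443 promoters of protein-coding genes. The G-box CACGTG is in 2 of the 10 (SWEET4 and SUC2) against 6.49% of all, the I-box GATAAG in 1 of 10 (STP4) against 12.3%, and the sugar repression element TATCCA in 2 of 10 (SWEET4 and STP1) against 13.6%. In SWEET4 the G-box and the sugar repression element overlap.

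SUC2 and STP1, carriers of the phloem and of hexose uptake, fell with paraquat in WT by smaller folds. SUC2 (AT1G22710, chromosome 1, 8030641 to 8033117, minus strand, 4 exons) fell with paraquat in WT by 2.08-fold (-1.06 ± 0.17, adjusted p = 0.000489 in the authors' deposited table). STP1 (AT1G11260, chromosome 1, 3777328 to 3780337, plus strand), a glucose symporter of root cells, fell by 1.92-fold (-0.94 ± 0.20, adjusted p = 0.00311 in the authors' deposited table). Neither was listed in trm4b-1.

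Because unlisted genes carry no value, a limit was computed for what could have gone unlisted if its standard error equalled the listed one. In trm4b-1 a paraquat change of SUC2 above 0.49 in size, or of STP1 above 0.56, would then have been listed. Over 2887 genes listed in both paraquat tables, the standard error in trm4b-1 was 0.9 to 1.1 times that in WT (5th to 95th percentile). The same reckoning put the limit of the interaction at 1.0 for SUC2 and 1.13 for STP1. A difference between the genotypes in the response of these genes was thus not shown, and one below those sizes could not have been seen. The SUC2 promoter holds the G-box, in capitals, and is shown at chr1:8033157-8033406 of TAIR10.1, minus strand.
SUC2: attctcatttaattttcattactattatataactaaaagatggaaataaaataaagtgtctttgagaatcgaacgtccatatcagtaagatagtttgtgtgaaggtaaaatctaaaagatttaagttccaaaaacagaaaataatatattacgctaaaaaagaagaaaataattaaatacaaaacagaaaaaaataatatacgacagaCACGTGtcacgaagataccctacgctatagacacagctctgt

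SWEET13 (AT5G50800), a sucrose carrier of the same clade as SWEET11, went the other way. It rose with paraquat by 5.48-fold in WT (2.45 ± 0.44, adjusted p = 0.000973) and by 5.99-fold in trm4b-1 (2.58 ± 0.40, with an adjusted p of 0.000520), as the authors' deposited table gives them. The rebuilt difference between the genotypes was 0.13 ± 0.60 (95% interval -1.14 to 1.40), wide enough to hold a change of more than 2-fold either way. SWEET13 lies on chromosome 5 from 20665077 to 20667304. Its nearest copy in coding sequence is SWEET14, at 80.8% identity, and SWEET14 rose by 3.21 ± 0.42 in WT and 2.79 ± 0.44 in trm4b-1 in the authors' deposited table. SWEET10, its neighbour 7066 bases away, was listed in no table.

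STP13 (AT5G26340), a hexose symporter known from stress and pathogen responses, also rose in both genotypes. The change was 0.44 ± 0.12 in WT (1.36-fold, adjusted p = 0.0161) and 0.75 ± 0.12 in trm4b-1 (1.68-fold, with an adjusted p of 0.000550), by the authors' deposited table. The rebuilt difference was 0.30 ± 0.17 (95% interval -0.05 to 0.66). STP4 (AT3G19930), a monosaccharide symporter of root tips, rose in trm4b-1 by 0.36 ± 0.10, with an adjusted p of 0.0269 in the authors' deposited table. STP4 was not listed in WT, where a change above 0.24 would have been if its standard error were the same, and the limit for the interaction was 0.55.

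In counts, 6 of the 10 genes changed with paraquat in WT, 4 lower and 2 higher, where 17.0% of all genes tested changed. In trm4b-1 3 of the 10 changed, all higher (SWEET13, STP4 and STP13), where 9.05% of all genes changed and 4.72% rose. Holm adjustment left SWEET11 and SWEET12 in WT, where it called 1.93% of genes, and none of the 10 in trm4b-1, where it called 1.34%. With a log2 change of at least 1 also required, which 3.19% of genes met in trm4b-1, SWEET13 alone was left there. Nothing is read from these shares, since listing in the tables bore on the choice of the genes. The medians over the listed genes were -1.0 for the 6 in WT and 0.75 for the 3 in trm4b-1, beside -0.26 and 0.25 over all genes listed in the same tables.

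Among the remaining 30 genes of the 3 families, 4 changed with paraquat in WT and 3 in trm4b-1. Of all genes tested, 17.0% changed in WT and 9.05% in trm4b-1, so both counts are near the background. Of the 30 genes, SWEET14 was the only one to rise in either genotype. SWEET16 and SWEET17, vacuolar carriers of glucose and fructose, are given with their values. SWEET16 fell by 1.18 in WT (-1.18 ± 0.19) and changed by -1.17 ± 0.20 in trm4b-1 in the authors' deposited table. SWEET17 fell in trm4b-1 (-0.79 ± 0.13), and in WT it was listed at -0.37 ± 0.12 (adjusted p = 0.0553 in the authors' deposited table).

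SWEET3 fell with paraquat in WT (-1.32 ± 0.41) and was listed at -1.66 ± 0.41 in trm4b-1 against WT (adjusted p = 0.0507 in the authors' deposited table). It thus had the signs of SWEET11 in both comparisons, without passing the threshold between genotypes. SWEET3 was not listed in the interaction, so its sign there is unknown. SUC1, a sucrose symporter, fell in WT by 1.35-fold (-0.43 ± 0.13 in the authors' deposited table). STP14 was listed in trm4b-1 with paraquat at 1.84 ± 0.58, where the authors' deposited table gives an adjusted p of 0.0618. Of the 9 SUC genes 2 fell in WT and 0 changed in trm4b-1, and of the 14 STP genes 2 changed in each genotype, beside 17.0% of all genes tested in WT and 9.05% in trm4b-1. The STP counts are near these shares.

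**Figure D4:**
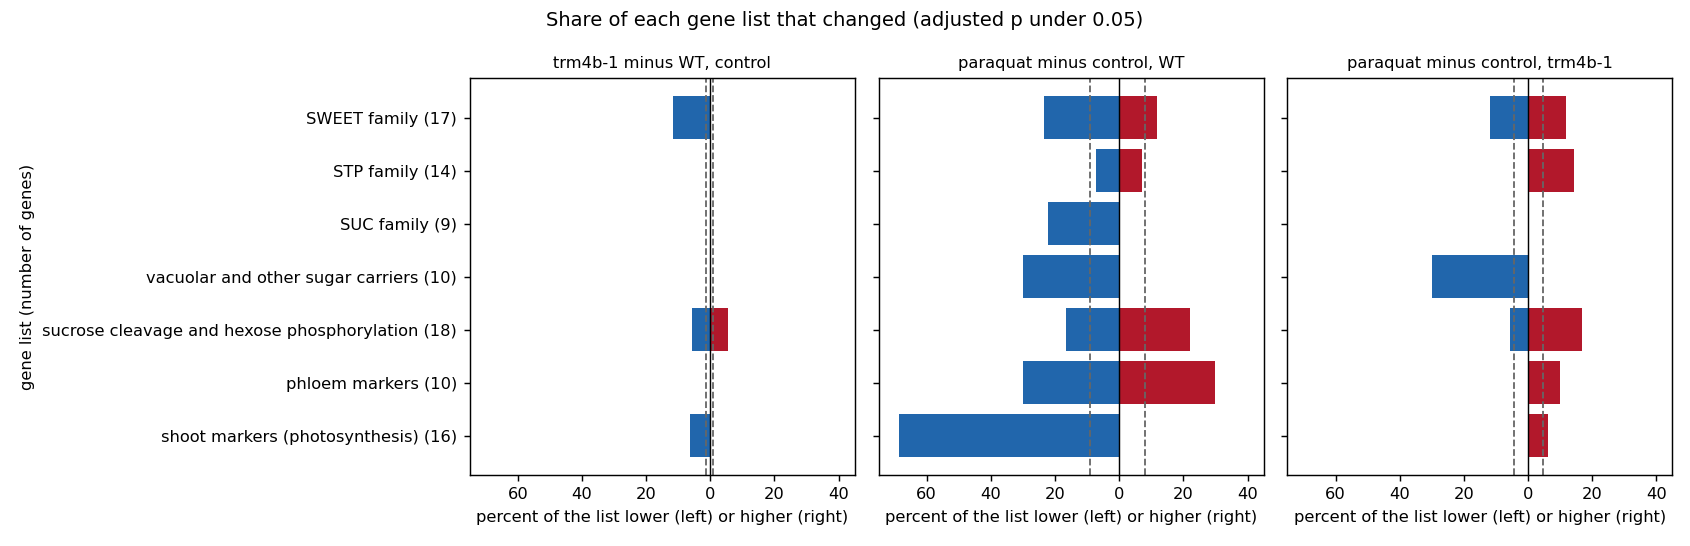
Share of each gene list that was lower (blue, left) or higher (red, right) at an adjusted p under 0.05 in 3 comparisons, with dashed lines at the share of all 33602 genes tested. Of the 10 vacuolar and other carriers 3 were lower in both genotypes with paraquat, and of the 16 photosynthesis genes 11 were lower in WT and none in trm4b-1.

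Of 10 genes for carriers of the vacuole membrane and other sugar carriers, 3 fell and none rose with paraquat in each genotype, namely TMT1, ERDL6 and ERD6, and the other 7 were not listed. Of all genes tested, 9.01% fell in WT and 4.33% in trm4b-1. TMT1, which takes sugars into the vacuole, was 2.14-fold lower with paraquat in WT and 1.91-fold lower in trm4b-1 by the authors' deposited table. ERDL6, an exporter of glucose from the vacuole, had -0.73 ± 0.17 and -0.56 ± 0.17 in the same order in the authors' deposited table.

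Among 18 genes named as invertases, sucrose synthases or hexokinases, 4 rose and 3 fell with paraquat in WT, and 3 rose and 1 fell in trm4b-1. Over all genes tested the shares were 7.99% and 9.01% in WT and 4.72% and 4.33% in trm4b-1, in the same order. The sucrose synthase gene SUS3 rose by 2.52-fold in WT (1.33 ± 0.10, adjusted p = 2.84e-07) and by 2.51-fold in trm4b-1 (1.33 ± 0.09, with an adjusted p of 2.07e-07), by the authors' deposited table. The cytosolic invertase gene CINV1 fell in both, by -0.93 ± 0.12 in WT and -0.52 ± 0.12 in trm4b-1 in the authors' deposited table. The vacuolar invertase genes AT1G62660 (-0.83 ± 0.12) and AT1G12240 (-0.47 ± 0.14) fell in WT in the authors' deposited table. CWINV6, another gene of the list, rose there by 0.64 ± 0.13. HXK2, a hexokinase gene, rose in trm4b-1 (0.70 ± 0.11 in the authors' deposited table). Without paraquat SUS1 was higher in trm4b-1 (0.36 ± 0.09) and AT1G62660 lower (-0.52 ± 0.12) in the authors' deposited table.

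Phloem markers were split in direction. Of 10 such genes 3 rose and 3 fell with paraquat in WT, 1 rose in trm4b-1, and 0 were listed between the genotypes in either medium. Between the genotypes 3.65% of all genes were listed without paraquat and 0.223% with it, so a count of 0 of 10 is near the background. With paraquat 7.99% of all genes rose and 9.01% fell in WT, and 4.72% rose in trm4b-1. The sieve element genes SEOR1 and SEOa had -0.53 ± 0.15 and -0.61 ± 0.17 in WT in the authors' deposited table. The lectin gene PP2-A1 of the companion cells rose by 0.65 ± 0.10 in WT and 0.39 ± 0.10 in trm4b-1 in the authors' deposited table. The fall of SUC2 in WT, a companion cell gene too, thus stood beside phloem genes of both directions, and the part of phloem content in it was not tested.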

How the data were processed

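RNA was sequenced from 12 root samples in 4 groups of 3, assigned by sample title. Build TAIR10 and the tools TopHat, Trimmomatic and limma are named in the submitters' processing notes. For read counting, strand use, normalization and filters, the method is not given in the sources used here. Per the file headers, the authors deposited 5 tables with a log fold change (read as log2 by limma's convention), its p-value, the adjusted p and the q-value of Storey, for genes with an adjusted p under 0.1. They hold no values per sample, so depth and replicate spread are unknown.

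The number of genes tested, 33602, came from adjusted p × rank / p. Total degrees of freedom (15.3, of which 8 residual) came from the variance of the interaction, which is the sum of those of both paraquat comparisons, in 96 genes listed in all 3 tables. Standard errors and rebuilt comparisons follow from it and were tested on simulated data. The members and lists were chosen with earlier results of these data known. All 10 members were named, as were listed family genes, up to 4 changed genes of each other list, TRM4B, and the 3 genes nearest in pattern to members listed in at least 3 tables.

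Gene names and promoters came from RefSeq on TAIR10.1, which had an entry for 8492 of 8607 listed genes. All 32 introns of the listed members are identical there, and 98.6% of 38749 introns of listed nuclear genes have standard splice ends in its sequence. Calculations ran in Python 3.11.15 with scipy 1.17.1, pandas 2.3.3, numpy 2.4.6 and matplotlib 3.10.9, and the simulation in limma 3.58.1. Alternatives were other thresholds, Holm adjustment, Storey q-values and other degrees of freedom.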

Additional observations from a re-analysis of the deposited data

Results flagged for a closer look

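The response to paraquat differed between the genotypes for SWEET11 and SWEET12, by the interaction in the authors' deposited table (limma). The difference, trm4b-1 minus WT, was 3.52 for SWEET11 (adjusted p = 0.00181) and 2.66 for SWEET12 (adjusted p = 0.0160). Both rest on the WT control group, which stands at the high end for both genes.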

How the results depend on the processing

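Of 50 counts recomputed under another threshold, 37 stayed within 1.5 times the count at an adjusted p under 0.05. The 37 include the counts between the genotypes on paraquat, which were 0 at every threshold. With paraquat in trm4b-1 all 4087 listed genes had a Storey q under 0.05, so that setting only recounted the listed genes. With Holm adjustment the members changed numbered 1 (SWEET11) without paraquat between the genotypes, 2 (SWEET11 and SWEET12) with paraquat in WT, 0 in trm4b-1 and 1 (SWEET11) in the interaction, and the family genes changed numbered 1, 3, 0 and 1. An adjusted p under 0.01 left 1 gene in the interaction for members and family alike, SWEET11. A log2 change of at least 1 left 1 member (SWEET13) and 3 family genes in trm4b-1 with paraquat. An adjusted p under 0.1 gave 4 family genes between the genotypes without paraquat. The fall of SWEET12 between the genotypes thus lost its call under Holm adjustment, and so did its interaction. Standard errors would be 0.459 to 0.843 times as large with 8 degrees of freedom and 1.18 to 1.96 times with a normal distribution. No member is listed in enough tables to set a deposited value beside a rebuilt one. No paired analysis was possible because the tables hold comparisons and no samples, and for the same reason no replicate could be left out.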

Other observations

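No protein-coding neighbour of the 10 genes in the reference order was listed between the genotypes in either medium or in the interaction. Of all genes tested, 3.65% were listed between the genotypes without paraquat, 0.223% with it and 0.943% in the interaction. GSA2, next to SWEET11 and a gene of chlorophyll precursor synthesis, was listed with paraquat at -0.47 in WT and at -0.44 in trm4b-1, the latter with an adjusted p of 0.0878 in the authors' deposited table, and CDC2 on the other side was not listed. LCB2, next to SWEET12, fell with paraquat in WT as SWEET12 did (-0.36, adjusted p = 0.0221 in the authors' deposited table). AT1G24485, among the genes nearest to SWEET11 in pattern, had -3.36 in trm4b-1 against WT and -3.09 with paraquat in WT in the authors' deposited table, and its interaction was 4.56.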
